A study of Mus musculus with 20 samples.

Results

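The comparison described here pooled every carbon black-exposed lung of the series and set it against the vehicle controls. The 15 arrays titled low, medium or high were taken as exposed and the 5 titled control as controls, which used all 20 arrays. All dams were female C57BL/6BomTac mice that carried and weaned a litter, so pregnancy and lactation were shared by controls and exposed animals. Controls received the vehicle, Milli-Q water, and exposed dams received carbon black Printex 90, a fine industrial carbon nanoparticle, by 4 instillations into the airways on gestation days 7, 10, 15 and 18. The low group received 11 µg in all (2.75 µg per instillation), the medium group 54 µg (13.5 µg each) and the high group 268 µg (67 µg each), with 5 dams per group. Lungs were taken 26 to 27 days after exposure, and each array compared the lung RNA of 1 dam, labelled with Cy5, with a universal mouse reference RNA labelled with Cy3. Every level below is the log2 ratio of lung over that reference, and a difference between groups is a difference of such log2 ratios. The question was which genes were shifted alike at every dose, and which were moved by the high-dose arrays alone.

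Siglech is a sialic acid-binding lectin of plasmacytoid dendritic cells, the cells known for sensing nucleic acids and releasing type I interferon. The lung's resident innate cells also include alveolar macrophages, which take up inhaled particles, and natural killer cells, which kill target cells under the control of paired activating and inhibitory receptors. In whole-lung RNA, fewer cells of a type and less RNA per cell cannot be told apart.

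Correlations across genes, which are no replicates, were 0.951 to 0.988 for pairs of arrays, and Cy5 was well above background for 64 to 78.3% of probes on an array. The mean of the alveolar type 2 and surfactant genes, which mark lung tissue, lay 3.34 to 4.12 log2 units above the reference in the controls, and no exposed array fell outside that range. On each of the 5 slides that held a control, the control was at position 1, and only 1 exposed array, medium dam 49, was at that position, so that position and control status cannot be told apart on those slides. Dose was tied to position as well: all 5 low dams were at position 2, all 5 high dams at position 4 and 3 of the 5 medium dams at position 3, so that differences between doses and position cannot be told apart either. The dim end of the reference channel was not level between arrays, although the reference RNA was the same throughout. The 10th percentile of the Cy3 signal was 33 to 38 intensity units on the controls (median 36). On the exposed arrays it was 36 to 53 (median 44), with medium dam 49, at position 1, at 40. The 10th percentile of Cy5 was 86 to 88 on the controls and 85 to 90 on the exposed arrays. The Cy3 percentile rose from control to high along every slide that held both, for example 34, 38, 42 and 44 on slide 1. The part of this drift in the results was not tested.

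Carbon black-exposed lungs differed from controls in 25 genes when the doses were pooled, 17 of them lower and 8 higher. The lower genes included lectins and receptors of innate immune cells (Siglech, Siglecf, Klrb1a, Klrb1f), an eosinophil-associated ribonuclease (Ear6) and channels and receptors of excitable and smooth muscle cells (Cacna1d, Kcns3, Trpc6, Agtr1a). Shifts were small, from 0.67 log2 units down to 0.24, and every gene of the 25 had the same sign at all 3 doses. Siglech stood apart from the rest in its adjusted p. Of 20104 genes tested with limma, the 25 made up 0.124%, the higher 0.0398% and the lower 0.0846%. At an unadjusted p under 0.05, 1476 genes were higher (7.34%) and 1537 lower (7.65%). A shared sign at all 3 doses was found in 58.9% of all genes, and the 3 dose differences share the same 5 controls, so the signs are not independent.

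Siglech fell in the exposed lungs as a whole and at each dose. The controls had Siglech at 0.71, 0.80, 0.84, 0.88 and 0.93 (mean 0.83 ± 0.08, SD, n = 5). The low-dose dams were at 0.35, 0.42, 0.42, 0.45 and 0.46, the medium at 0.20, 0.23, 0.25, 0.31 and 0.45, and the high at 0.28, 0.37, 0.42, 0.44 and 0.46. None of the 15 exposed dams reached the lowest control, and the 3 doses overlapped one another. The pooled Siglech difference was -0.46 ± 0.04 (SE), 1.38-fold lower, with a 95% interval of -0.56 to -0.37 and an adjusted p of 3.71e-05 (limma). By dose, the Siglech difference was -0.41 at low, -0.54 at medium and -0.44 at high, without an order by dose. The test of high against the mean of low and medium gave 0.04 for Siglech with an adjusted p of 0.793. Siglech was the only gene called for low against control and the only gene for medium against control, each 0.00497% of genes tested. It was also the only gene called when the low and medium dams were set against the controls, with -0.48 (95% interval -0.58 to -0.38).

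**Figure D1:**
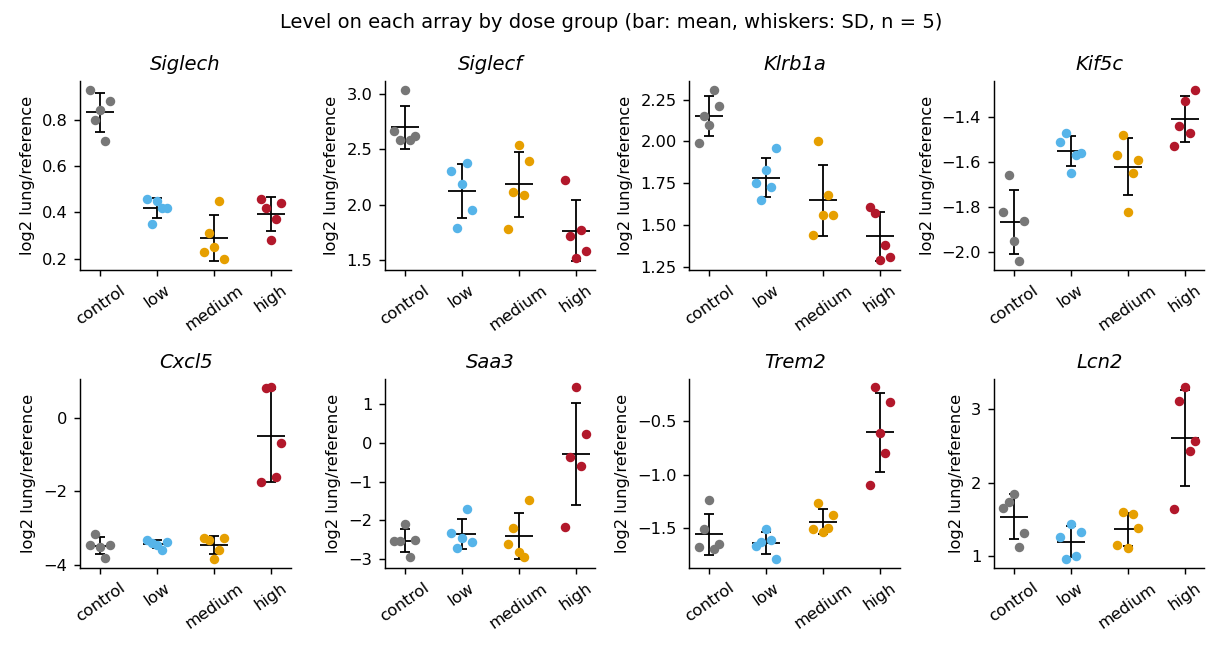
Log2 lung over reference by group for 4 genes called in the pooled comparison (Siglech, Siglecf, Klrb1a, Kif5c) and 4 genes moved by the high dose alone (Cxcl5, Saa3, Trem2, Lcn2); points are dams, bars the mean and SD (n = 5). Siglech lies at 0.71 to 0.93 in the controls and at 0.20 to 0.46 in the exposed dams, whereas Cxcl5 stays between -3.85 and -3.16 until the high dose.

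The promoter of Siglech is shown because this gene carried the pooled comparison. RefSeq's window on GRCm38.p6 is chr7:55767934-55768233, plus strand, from 250 bases before to 50 bases after the start, and capitals mark E-boxes (CANNTG, either strand), the motif that factors such as TCF4 of plasmacytoid dendritic cells recognise.
Siglech: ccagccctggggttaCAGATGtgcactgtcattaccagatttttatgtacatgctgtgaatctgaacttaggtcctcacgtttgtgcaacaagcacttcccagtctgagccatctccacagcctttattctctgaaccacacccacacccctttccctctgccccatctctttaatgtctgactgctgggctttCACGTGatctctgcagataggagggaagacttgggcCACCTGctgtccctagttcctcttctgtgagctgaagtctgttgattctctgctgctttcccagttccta
The window held 3 E-boxes, CAGATG at 235, CACGTG at 56 and CACCTG at 20 bases upstream of the start, and 72.3% of all 32851 promoters in the table held at least 1.

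The Siglech probe was dim, and the channels were read separately. Its Cy5 signal was 155 to 183 intensity units on the controls and 107 to 152 on the exposed arrays, over a background near 80.7 to 82.4, and the groups did not overlap. Its Cy3 signal was 35 to 40 on the controls and 35 to 61 on the exposed arrays and was well above background on none of the 20. After quantile normalisation of each channel alone, the exposed lungs were lower by -0.35 in Cy5 and moved by 0.06 in Cy3. Within the 5 slides with a control the Siglech difference was -0.55 to -0.32. Siglech remained called when any single dam was left out (adjusted p 9.76e-06 to 0.000491). It was called in 37 of 40 other settings in all, which include these 20 omissions and mostly reuse the deposited ratios. It kept its direction but was not called after normexp background correction (-0.38, adjusted p 0.0791), with the software's log ratio (-1.02, adjusted p 0.444) or with Cy5 alone (-0.35, adjusted p 0.352).

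Siglech was the only call among the plasmacytoid dendritic cell genes. Of 19 measured members, 11 were below 0 and the median pooled difference was -0.07, against 0.00 over all genes tested. At an unadjusted p under 0.05, 5 members were lower and 1 was higher, Siglech included, where 7.65% of all genes were lower and 7.34% higher. The list was not tested as a whole. Pacsin1 differed by -0.29 (adjusted p 0.222) and Tlr7, an RNA sensor, by -0.24 (adjusted p 0.291). Bst2, a tethering factor that also marks these cells, differed by 0.25 (adjusted p 0.168), and Tcf4, their lineage factor, by 0.10 (adjusted p 0.568). Irf8 and Irf7, which drive interferon genes, were at 0.04 and 0.00.

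Siglecf, the sialic acid-binding lectin of mouse alveolar macrophages and eosinophils, fell most among the 25 genes. The controls had Siglecf at 2.58, 2.58, 2.62, 2.67 and 3.04, and the exposed dams ranged from 1.52 through a median of 2.09 to 2.54. No exposed dam reached a control. The pooled Siglecf difference was -0.67 ± 0.12 (SE), 1.60-fold lower (adjusted p 0.0297), and by dose it was -0.58, -0.51 and -0.93 from low to high. The high dose did not differ from low and medium by the test (-0.39, adjusted p 0.207). Its Cy5 signal alone differed by -0.31 and its Cy3 signal, well above background on 10 of 20 arrays, by 0.11. Siglecf was no longer called when control 7, 14, 15 or 18 was left out (adjusted p up to 0.108).

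Siglecf was the only call among 14 measured alveolar macrophage genes, whose median pooled difference was -0.05. Marco, a scavenger receptor for particles, differed by 0.09, Itgax by -0.07, Pparg, the lineage factor of these cells, by -0.02 and Chi3l3 (Chil3), a chitinase-like protein, by 0.18, none of them called. In the eosinophil and mast cell list, 2 of 12 measured genes were called, Siglecf and Ear6, against 0.0846% of all genes called lower. The list median was -0.09. Ear6 fell by 0.42 on the log2 scale (adjusted p 0.0472), and by dose it was -0.37, -0.21 and -0.68. Of the exposed dams 12 lay below every control and 3 overlapped them. A second Ear6 probe gave -0.27 ± 0.10 (SE), and the family of Ear genes is close in sequence, so that the member measured is uncertain. Ear6 moved in both channels, by -0.48 in Cy5 and by -0.23 in Cy3. Prg2, Ccr3 and Il5ra, which are eosinophil markers, differed by -0.12, -0.07 and 0.06 without a call.

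Klrb1a and Klrb1f, receptors of the natural killer gene complex, fell in the exposed lungs, and most other genes of these cells were below 0 without a call. Klrb1a, of the NKR-P1 family, was at 1.99, 2.10, 2.15, 2.21 and 2.31 in the controls and at 1.29 to 2.00 in the exposed dams, with a median of 1.61. One exposed dam, medium 47, lay just above the lowest control, and the other 14 lay below all of them. Klrb1a fell by 0.53 as a log2 ratio (SE 0.08, adjusted p 0.0122), and its differences of -0.37, -0.50 and -0.72 were larger in size at each higher dose. Its Cy3 signal was well above background on 0 of 20 arrays, so the size of the ratio rests on a reference near its background, and the difference was -0.30 in Cy5 and 0.01 in Cy3. High against low and medium gave -0.28 for Klrb1a (adjusted p 0.138). Klrb1f, of the same family, fell by 0.34 (SE 0.06, adjusted p 0.026), with -0.34, -0.40 and -0.27 by dose. All 5 controls, from 0.87 to 1.15, were above the exposed dams, from 0.47 through 0.68 to 0.85.

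Across the natural killer cell list, 17 of 19 measured genes were below 0 and all 19 had the same sign at each dose, with a median of -0.35 for the pooled difference and of -0.19, -0.25 and -0.50 for low, medium and high. Klrb1a was the only one called, while 13 were lower at an unadjusted p under 0.05 and none higher, against 7.65% of all genes lower at that threshold. Klra8, a Ly49 receptor, was just outside the call at -0.58 (adjusted p 0.0533), with controls from 3.12 to 3.59 and exposed dams from 2.17 through 2.83 to 3.22, but was at 0.06 with the software's log ratio. Klrb1c, which encodes the antigen NK1.1, gave -0.55 (adjusted p 0.0586) with its brighter probe and -0.06 with another. Klra7 was at -0.51 (adjusted p 0.084) and Klrd1, the CD94 subunit, at -0.47 (adjusted p 0.0877). The activating receptor Ncr1 was at -0.35, and the cytotoxic effectors Prf1, Gzmb and Gzma were at -0.39, -0.35 and -0.30, none called. Eomes and Klra3 were the members above 0, at 0.14 and 0.08. The list median was between -0.37 and -0.20 under the other normalisations and filters tried, with all 19 members below 0 with Cy5 alone (median -0.28) and 13 of 19 with the software's log ratio (median -0.20). Only 6 of the 19 had Cy3 well above background on all arrays, all 6 below 0. Klra genes are near-identical copies, so single members are uncertain. The T cell list showed a median of -0.07 and no call among 18 measured genes.

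**Figure D2:**
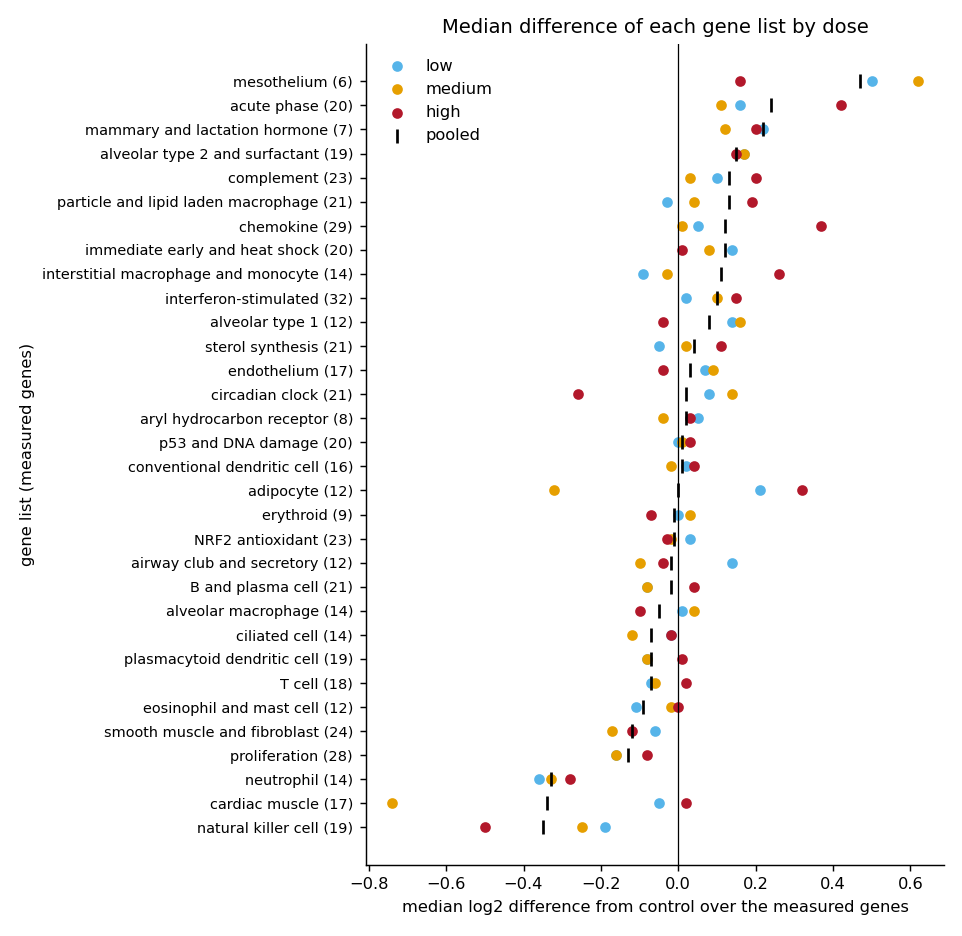
Median difference from control at the low, medium and high dose for each of the 32 gene lists; each point is the median log2 difference over the measured members, and all doses share the 5 controls. The natural killer list lies at -0.19, -0.25 and -0.50, and the mesothelium list at 0.50, 0.62 and 0.16.

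Cacna1d, Agtr1a, Kcns3, Trpc6 and Slc1a2 were further lower calls, which belong to no list counted here. Cacna1d, the pore subunit of an L-type calcium channel, had controls at 1.92, 2.24, 2.33, 2.36 and 2.57 and exposed dams from 1.39 through 1.75 to 2.07. Of the 15 exposed dams, 13 were below every control. Cacna1d fell by 0.57 (SE 0.11, adjusted p 0.0382) and was at -0.54, -0.57 and -0.60 by dose, but its other probes gave -0.22 and -0.15. Alone, its Cy5 differed by -0.27 and its Cy3, well above background on 5 of 20 arrays, by 0.04. Agtr1a, the type 1a angiotensin II receptor, had controls at 2.93 to 3.51 and exposed dams at 2.22 to 2.91, with no overlap. It fell by 0.50 (SE 0.10, adjusted p 0.0402), with -0.37 from a further probe. Kcns3, a modulatory potassium channel subunit, fell by 0.48 (adjusted p 0.0148) and Trpc6, a cation channel of smooth muscle, by 0.49 (adjusted p 0.0324). Both had their smallest difference at the low dose, -0.26 and -0.23, and their largest at the high dose, -0.63 and -0.68. The glutamate transporter Slc1a2, listed on the array as 2900019G14Rik, fell by 0.40 (adjusted p 0.0422), from -0.21 at low to -0.62 at high. The references of these last genes were dim, with Cy3 well above background on 2 arrays for Kcns3, 7 for Trpc6 and 0 for Slc1a2. Their Cy5 signals alone differed by -0.09, -0.19 and -0.13 and their Cy3 signals by 0.08, 0.05 and 0.09.

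Other genes were lower at every dose. Rgs18, a regulator of G protein signalling in platelets and their precursors, had controls at 2.36, 2.76, 2.87, 2.97 and 3.05 and exposed dams from 1.87 through 2.22 to 2.66. Control 4 lay within the exposed range, and 12 of 15 exposed dams were below all controls. Rgs18 fell by 0.58 (SE 0.11, adjusted p 0.0311), with -0.60, -0.66 and -0.48 by dose, and another probe gave -0.40. Its Cy3 was well above background on 0 of 20 arrays, and the channels alone differed by -0.22 in Cy5 and 0.06 in Cy3. Tm6sf1, a membrane protein, had controls at 2.09, 2.27, 2.30, 2.30 and 2.31 and exposed dams from 1.55 to 1.99. The groups did not overlap, and Tm6sf1 fell by 0.43 (SE 0.07, adjusted p 0.018), with -0.22 from a second probe. Plcxd3 fell by 0.40 (adjusted p 0.0205) and Htra4, a serine protease, by 0.35 (adjusted p 0.0237), both without overlap of the groups. Plcxd3 had Cy3 well above background on 1 array and differed by -0.25 in Cy5 and 0.00 in Cy3. Lama2, a laminin chain of basement membranes, fell by 0.30 (adjusted p 0.0466), and another probe gave -0.43. The remaining lower calls were 6330500D04Rik at -0.38, with -0.18, -0.12 and -0.08 from further probes, and the transcript AK083952 at -0.26.

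The 8 higher calls were smaller than most of the lower ones. Kif5c, a kinesin motor chain, was at -2.04, -1.95, -1.86, -1.82 and -1.66 in the controls and at -1.82 through -1.53 to -1.28 in the exposed dams. In all, 14 of 15 exposed dams lay above every control. Kif5c rose by 0.34 (SE 0.06, 1.27-fold, adjusted p 0.0237), with 0.32, 0.25 and 0.46 by dose. Entpd7, a nucleotide hydrolase, had controls from -1.66 to -1.49 and exposed dams from -1.46 to -1.07. The groups did not overlap, and Entpd7 rose by 0.26 (adjusted p 0.0237), with 0.15 from a second probe. Tm7sf4 (Dcstamp), a membrane protein of cell fusion in osteoclasts and macrophage giant cells, rose by 0.30 (adjusted p 0.0438), with 0.18, 0.28 and 0.46 from low to high. Nog, the secreted BMP antagonist noggin, was higher by 0.27 as a ratio (adjusted p 0.0148), yet both its channels were lower in exposed lungs, by -0.35 in Cy5 and -0.53 in Cy3. Olfr32, an olfactory receptor gene, was likewise higher as a ratio (0.28, adjusted p 0.0205) with -0.03 in Cy5 and -0.23 in Cy3. The transcripts TC1482443, AK053298 and NAP056725-1 were higher by 0.25, 0.24 and 0.28.

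The channels differed between the lower and the higher calls. All 17 lower calls were below 0 in Cy5 alone and none moved more in Cy3 than in Cy5, whereas of the 8 higher calls 6 were above 0 in Cy5 and 4 moved more in Cy3. Every channel shift given here was taken after quantile normalisation of that channel across arrays. That step evens out the rise of the dim end of Cy3, so a small Cy3 shift cannot show whether that rise entered a ratio. Cy5 shift minus Cy3 shift need not equal the ratio: for Kcns3 they were -0.09 and 0.08 against -0.48. Before that step the Cy3 signal of Kcns3 was 36 to 43 on the controls and 39 to 63 on the exposed arrays. With Cy5 alone no gene was called (429 higher and 469 lower at an unadjusted p under 0.05, limma). The Cy3 signal was well above background on fewer than 10 arrays for 9 of the 17 lower calls (52.9%) and for 1 of the 8 higher calls (12.5%), against 13.4% of all genes tested. When the test was limited to the 15539 genes with Cy3 well above background on all 20 arrays, a setting added after seeing the data, 9 of the 25 genes could be tested. All 9 kept their direction, and 5 genes were called: Kif5c (adjusted p 0.0402), Nog (adjusted p 0.0244), Entpd7 (adjusted p 0.0402) and TC1482443 were higher, and Tm6sf1 (adjusted p 0.0244) was lower. Siglech, Siglecf and Klrb1a were not among the genes testable there. A test of the Cy3 channel alone called no gene in the pooled comparison (604 at an unadjusted p under 0.05).

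**Figure D3:**
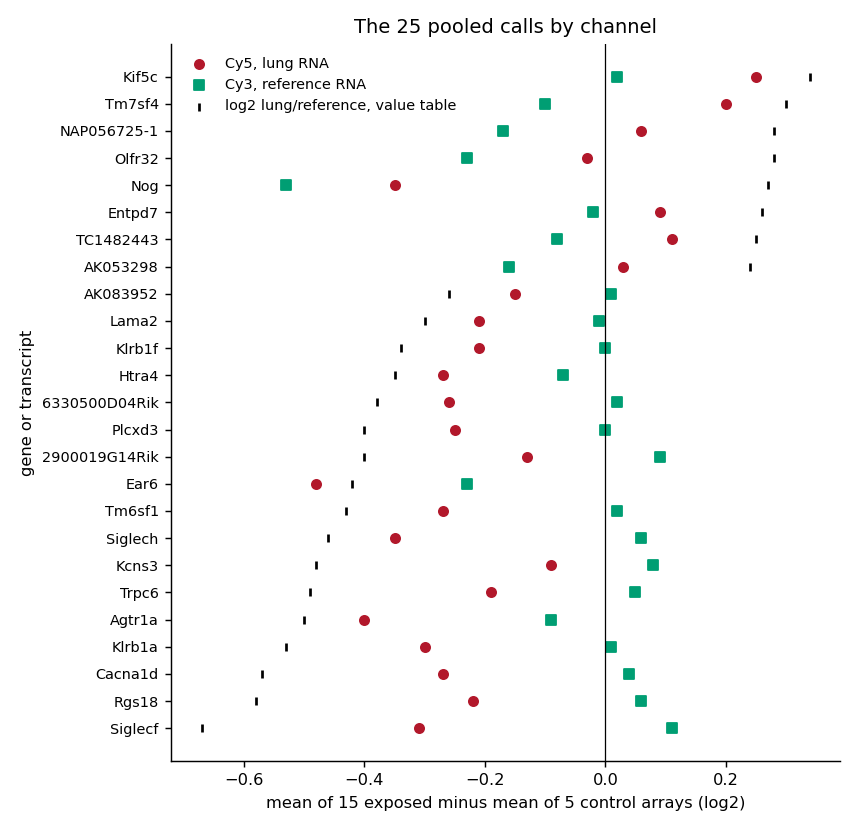
Exposed minus control for the 25 pooled calls in the Cy5 lung channel, the Cy3 reference channel and their deposited log2 ratio, each channel quantile normalised alone. All 17 lower calls are below 0 in Cy5, and Nog is at -0.35 in Cy5, -0.53 in Cy3 and 0.27 as a ratio.

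The shift was of like size at every dose in 19 of the 25 genes, counted where the smallest of the 3 dose differences was at least 0.5 times the largest. The 19 were 6 higher (0.0298%) and 13 lower genes (0.0647%) and together 0.0945% of genes tested, while 18.3% of all genes met the size criterion with no test. The named ones were Siglech, Siglecf, Rgs18, Cacna1d, Klrb1a, Agtr1a, Tm6sf1, Plcxd3, Htra4, Klrb1f and Lama2 among the falls and Kif5c, Nog and Entpd7 among the rises. Leaving out 1 dam gave 1 such gene without control 15, 2 without control 18, 9 without control 7 and 12 without control 14, but 39 without control 4. Those outside it, such as Kcns3, Trpc6, Slc1a2 and Ear6, had dose differences that varied more. Some of the 19 were themselves near the 0.5 limit, such as Klrb1a at -0.37, -0.50 and -0.72 and Plcxd3 at -0.28, -0.37 and -0.55. The high dose alone against control called 215 genes (1.07%), 106 higher (0.527%) and 109 lower (0.542%), and 22 of the 25 (0.109% of genes tested) were among them, in a comparison with the same controls and part of the same exposed arrays.

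**Figure D4:**
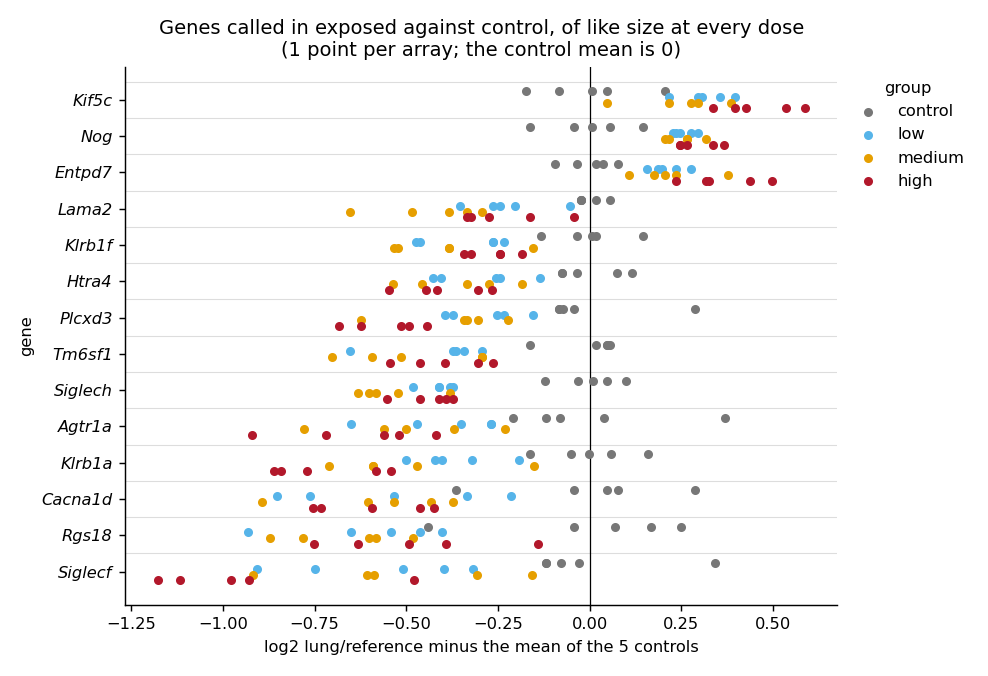
Each array's log2 ratio minus the control mean for the 14 named genes of like size at every dose; colours are the groups, and 0 is the mean of the 5 controls. For Siglech the 15 exposed dams form a band with no overlap with the controls, and for Kif5c 14 of 15 exposed dams lie above every control.

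Complete separation of exposed dams from controls was seen in 34 genes (0.169%), 12 higher (0.0597%) and 22 lower (0.109%). Only 12 of the 34 (0.0597% of genes tested) were among the 25 calls. The higher ones outside the calls included Cxadr, a junction protein and virus receptor, with controls at 0.10, 0.12, 0.37, 0.41 and 0.45 and exposed dams from 0.49 through 0.75 to 1.29. Cxadr differed by 0.50 (adjusted p 0.0818) and by 0.48 in Cy5 against 0.00 in Cy3, but its other probes gave 0.11 and 0.17. Tmc1 differed by 0.20 (adjusted p 0.0828), with 0.00 in Cy5 and -0.19 in Cy3. The 2 exposed arrays of slide 6, medium dams 49 and 50, shared no slide with a control.

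The count of pooled calls rested on single dams more than the direction of the shifts did. Leaving out 1 dam at a time gave 1 to 50 calls: 1 without control 15, 2 without control 18, 10 without control 7, 15 without control 14 and 16 without low 25, but 50 without control 4, 45 without high 60, 39 without medium 49 and 38 without medium 47. Without control 15 the call that remained was Siglech, and Lama2 was called in 6, Slc1a2 and 6330500D04Rik in 8, Cacna1d in 9 and Agtr1a in 10 of the 20 omissions, and Trpc6 in 13, Tm7sf4 in 6, NAP056725-1 in 5 and Ear6 in 4. For low and medium against control the 1 call became 7 without high 62, 4 without control 4 or medium 47, and 2 without control 18, low 36, medium 46 or medium 49. Without the whole high group the pooled comparison called 1 gene, Siglech, while all 25 kept their direction with an unadjusted p under 0.05. With slide as a block 12 of the 25 were still called (24 calls in all), and with scan day as a block 13 (20 in all), with all 25 in the same direction. The calls fell to 0 after normexp correction, with the software's log ratio and with Cy5 alone. In these 3 settings 25, 24 and 23 of the 25 genes kept their direction, and 24, 14 and 14 had an unadjusted p under 0.05.

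Other genes met the rule for being moved by the high dose alone, with the largest rises in Cxcl5, Saa3, Igj and Ly6f. The high dams differed from the mean of low and medium in 83 genes (0.413%), 69 higher (0.343%) and 14 lower (0.0696%). Of these, 43 were also called for high against control with the same sign (0.214%), 39 of them higher (0.194%) and 4 lower (0.0199%). None of the 43 was among the 25 pooled calls, which were 0.124% of genes tested. None of the 43 was called at the low or medium dose, where Siglech was the only call at each (0.00497% of genes tested). At those shares the lack of overlap says little about the 43. Of the 43, 11 (25.6%) had Cy3 well above background on fewer than 10 arrays.

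Cxcl5, a chemokine that attracts neutrophils, made the largest change. The controls were at -3.81, -3.53, -3.47, -3.47 and -3.16, the low dams at -3.61 to -3.32 and the medium dams at -3.85 to -3.27. The high dams were at -1.75, -1.62, -0.68, 0.82 and 0.84. All 5 high dams lay above every other dam, and the low and medium dams overlapped the controls. The difference was 2.77 in Cy5 and -0.03 in Cy3. Cxcl5 rose at the high dose by 3.01 ± 0.38 (SE), 8.04-fold, and by 2.97 over the mean of low and medium (adjusted p 0.000278). Low and medium differed from control by 0.04 for Cxcl5, with a 95% interval of -0.65 to 0.72.

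Among 29 measured chemokine genes 6 were higher at high than at low and medium and 4 of them met both tests: Cxcl5, Ccl7, Ccl20 and Cxcl3, listed on the array as Gm1960. Of all genes tested, 0.343% were higher at high than at low and medium, and 0.194% were higher in both tests. Ccl7, which attracts monocytes, was at 0.18, 0.15 and 1.26 from low to high. In the acute phase list 3 of 20 measured genes met both tests, against 0.194% of all genes: Saa3, Saa1 and Lcn2. Saa3, a serum amyloid A made in the lung itself, had controls at -2.95, -2.52, -2.52, -2.51 and -2.09 and high dams at -2.18, -0.61, -0.37, 0.23 and 1.42. High dam 60 lay within the control range and the other 4 lay above it. Saa3 differed by 0.17 at low, 0.11 at medium and 2.22 at high, and the high dose stood apart by 2.08 (adjusted p 0.0155), a call lost without high 62, 63 or 65 (adjusted p up to 0.0602). Lcn2, an iron-withholding lipocalin, was at -0.34, -0.17 and 1.08, and Saa1 at 0.14, 0.23 and 1.19, with a smaller 0.29 from a further Saa1 probe for the high dose apart against 1.01. The Saa genes are close in sequence.

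The promoter of Saa3 is shown as that of an acute phase gene of the high-dose group. Capitals mark C/EBP matches here but E-boxes for Siglech. Unmarked, the Siglech window also held a C/EBP match (TTGTGCAA) and the Saa3 window an E-box (CACCTG). RefSeq's window on GRCm38.p6 is chr7:46715627-46715926, minus strand, with the match to the C/EBP motif (TTNNGCAA, or TTGCNNAA for the opposite strand) in capitals, 99 bases upstream of the start.
Saa3: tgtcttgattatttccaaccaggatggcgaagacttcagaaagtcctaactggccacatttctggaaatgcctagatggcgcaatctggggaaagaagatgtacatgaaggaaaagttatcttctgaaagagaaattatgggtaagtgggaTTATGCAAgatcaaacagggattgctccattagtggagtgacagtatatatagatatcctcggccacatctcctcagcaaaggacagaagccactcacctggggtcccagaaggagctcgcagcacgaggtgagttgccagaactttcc
Of the 39 higher genes, 29 had a symbol and 22 were matched to 29 promoters. Of these promoters 10 (34.5%) held a C/EBP match, against 10.8% of all promoters, and 9 (31%) an NF-kB match, against 9.31%. For the 25 pooled calls, 20 had a symbol and 14 were matched to 16 promoters, of which 2 (12.5%) held each of these motifs and 11 (68.8%) an E-box, against 72.3% of all. A TATA match (TATAAA, either strand) was in 2 of the 16 and in 6 of the 29, against 13.6% of all promoters. These shares describe letters in the windows and were not tested.

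In the list of genes of particle- and lipid-laden macrophages, 7 of 21 were higher at high than at low and medium, against 0.343% of all genes, and Trem2, Mmp12, Clec5a and Msr1 met both tests. Trem2, a lipid receptor of macrophages, had controls at -1.70, -1.68, -1.65, -1.51 and -1.24, low dams at -1.79 to -1.51, medium dams at -1.54 to -1.26 and high dams at -1.10, -0.80, -0.61, -0.32 and -0.18. Every high dam lay above all others, and Trem2 stood apart by 0.94 (SE 0.11, adjusted p 0.000544), with 0.70 from a second probe. Mmp12, the macrophage elastase, was at 0.13, 0.16 and 0.98 by dose, and Msr1, a scavenger receptor, at -0.10, 0.03 and 0.84. Clec5a was at -0.13, 0.04 and 0.80, but its other probe stood apart by only 0.17 against 0.84.

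Noxo1, an organiser of an NADPH oxidase, was at -0.14, -0.10 and 1.15, and Ly6f, a Ly6 family gene, at -0.14, 0.08 and 1.58. Slc7a11, the cystine transporter, was the only one of 23 NRF2 antioxidant genes called, at 0.07, 0.10 and 0.60. Among 21 measured B and plasma cell genes 2 were higher in both tests, against 0.194% of all genes. The medians of that list were -0.08, -0.08 and 0.04 by dose. The 2 were Igj (Jchain), the joining chain of secreted antibodies, at 0.14, -0.12 and 1.78, and Tnfrsf17, the receptor BCMA, at -0.02, -0.08 and 0.83. Outside the list, Igkv1-133, an antibody light chain segment that shares sequence with its family, was at 0.30, -0.67 and 1.49. For Igj, control 4 at -0.66 lay above high dam 64 at -1.13. Its call for high against low and medium was lost without high 62 or high 63. Csf2, Il1rn and Tnfrsf9, a cytokine, an interleukin-1 antagonist and a T cell costimulator, stood apart by 0.61, 0.53 and 0.51. The 4 falls were Cst8, a cystatin, at -0.16, -0.23 and -1.10, Gsg1l (listed as g1l) at -0.14, -0.02 and -0.70, Gria3, a glutamate receptor subunit, at -0.07, -0.19 and -0.41, and Lilra5 (E030017K20) at -0.13, -0.14 and -0.37.

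**Figure D5:**
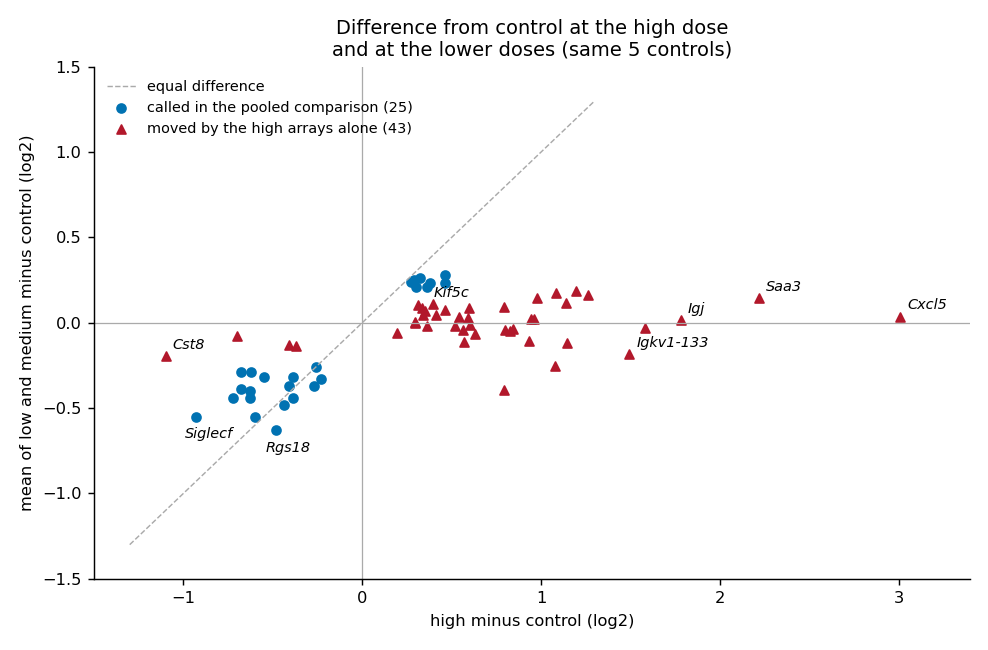
Mean of low and medium minus control (vertical axis) against high minus control (horizontal axis), in log2 units, for the 25 pooled calls and the 43 genes moved by the high dose alone. Siglech lies at -0.48 and -0.44, and Cxcl5 at 0.04 and 3.01; both axes share the 5 controls.

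The size of the high-dose group of genes also rested on single dams. The count of genes apart at the high dose was 19 without high 63, 24 without high 62 and 38 without high 65, but 312 without high 60 and 133 without high 64. It was 129 without medium 46, 47 to 49 without low 27, medium 48 or medium 49, 52 without medium 50 and 22 without both arrays of slide 6. The 43 genes moved by high alone became 12 without high 62 or high 63, 23 without control 15, 25 without control 18, 27 without high 65, 77 without high 64 and 111 without high 60. Cxcl5, Ly6f, Trem2, Noxo1, Clec5a and Lcn2 remained called whichever dam was left out, while Saa1 was called in 12, Mmp12 in 11, Lilra5 in 9 and Gria3 in 3 of the 20 omissions.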

How the data were processed

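Lung RNA of 20 dams was measured on 2-colour arrays, with Cy5 for lung, Cy3 for the common reference and no dye swap. The value table deposited by the authors holds log2 lung over reference for 43379 features, with column medians of -0.05 to -0.0315. How it was normalised is not stated in the labels or headers, and whether background had been subtracted was not tested. Its direction was set from the dyes and a correlation of 0.962 to 0.992 with unsubtracted log2 Cy5 over Cy3. The deposited scanner files hold intensity and, per the file headers, a log10 ratio, from Feature Extraction 9.5.1.1 (18 arrays) or 10.1.1.1 (2 arrays). Spots of a probe were averaged without outlier spots. Probes needed a Cy5 signal well above background on 3 or more of the 5 dams of any group, and a value on at least 16 arrays. The brightest probe stood for a gene, named by the files' GeneName or, for old names, through the GRCm38.p6 gene table, which gave 20104 genes, 15830 with a symbol. In 104 of them a value was missing on some array, and these were fitted without it.

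A model of 4 group means was fitted with limma 3.58.1 in R 4.3.3 (lmFit, eBayes, two-sided, Benjamini-Hochberg, threshold 0.05). The pooled contrast was the mean of the 3 doses minus control. A gene was counted as moved by high alone if high against the mean of low and medium and high against control were both called with one sign. No condition was set on low and medium against control. The labels list separate dams but not separate experiments, so p-values measure the spread between these dams. The number of arrays limits the precision.

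The rule for named genes took the 12 largest rises and falls of like size at every dose, the 6 largest each way moved by high alone, the 5 of each direction with complete separation and the smallest p, Siglech and the 3 members of each list with the smallest p. The other calls and list members were named after their values were seen. The 32 lists are cell types, chemokines, acute phase, complement, interferon, clock, early response, sterol, NRF2, AhR, p53 and hormone genes; some share members. The members and lists were chosen with earlier results of these data known. Lists were counted and not tested.

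Alternatives were a 2-group fit, normexp (offset 50) with loess, no background correction with loess, the software ratio, Cy5 alone, median centring, scaling between arrays, other filters and probe rules, slide or scan day as a block, array weights, and omission of slide 6, of each exposed group and of each dam. The steps were tested on simulated data.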

Additional observations from a re-analysis of the deposited data

Results flagged for a closer look

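In groups of 5 dams, 12 of 244 gene groups looked at had 1 dam far from the other 4, about the 5 percent that chance gives, in 11 genes. For pooled calls these were control 14 in Siglecf (3.04, others 2.58 to 2.67), control 7 in Plcxd3 (1.55, others 1.18 to 1.22), control 18 in 2900019G14Rik (1.32, others 1.40 to 1.43), medium 48 in Tm7sf4 (-0.17, others 0.11 to 0.19) and, in Tm6sf1, control 4 (2.09, others 2.27 to 2.31) and low 27 (1.60, others 1.88 to 1.96). Cst8 had medium 49 apart (3.90, others 3.38 to 3.53) and Cxadr medium 50 (1.29, others 0.72 to 0.88). Among list members, high 60 was apart in Bst2 (0.90, others 0.30 to 0.47), low 25 in C3ar1 (-0.10, others -0.23 to -0.22), high 65 in Esr1 (0.14, others -0.90 to -0.70) and medium 47 in Ngp (1.06, others 0.05 to 0.31).

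The reference channel, which holds the same RNA on every array, gave 1 call: Cfb was higher in Cy3 at high than at low and medium by 0.70 (adjusted p 0.0248, limma).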

How the results depend on the processing

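The 25 pooled calls became 10 with a 2-group fit, 13 with scaling between arrays, 16 without the medium group, 1 without the high group, 39 with no filter on dim probes, 47 with probes in place of genes and 44 with array weights. Those of like size (19) became 9 with scaling, 12 without medium, 1 without high, 31 without low, 32 with weights and 35 with probes. The 83 genes apart at high became 52 with Cy5 well above background on all arrays, 46 with slide as a block, 28 with scan day as a block and 22 without slide 6. The 43 genes moved by high alone became 25, 24 and 20 with the all-array Cy5 filter, scan day and no slide 6. The 1 gene for low and medium became 3 without background correction, 5 without filter, 4 with mean probes and 9 with weights. After normexp the counts for pooled, like size, apart, alone and low with medium were 0, 0, 44, 12 and 0, with the software ratio 0, 0, 24, 7 and 0, and with Cy5 alone 0, 0, 68, 16 and 0. At an unadjusted p under 0.05 these 3 settings (limma) gave 983, 1038 and 429 higher and 1062, 969 and 469 lower pooled genes, and 869, 1052 and 519 higher and 1054, 928 and 490 lower genes for low and medium. Of the settings added after seeing the data, normexp refitted without the lowest spot gave 1, 1 and 25 for pooled, like size and alone, normexp without low 27 gave 1, 1, 46 and 23 for pooled, like size, apart and alone, and Cy3 above background on all arrays, which tests fewer genes, gave 5, 5, 19 and 0 for pooled, like size, alone and low with medium (at unadjusted p, 1115 higher and 876 lower). Leaving out 1 dam gave 1 to 50, 1 to 39, 19 to 312, 12 to 111 and 1 to 7. Cst8 turned to 0.20 and Ear6 to 0.03 with the software ratio, and Nog to -0.35 and Olfr32 to -0.03 with Cy5 alone. Where no fewer genes or arrays account for a change, the cause was not tested. No paired analysis was possible because the dam numbers are not shared between groups. Slides that held several groups entered only as a block, which gave 24 pooled calls, 12 of them among the 25. Small differences are limited by signal over background: the median Cy5 signal was 161.5 to 246.5 over 80 to 83.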

Other observations

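No mesothelium gene was called, and the groups overlapped. All 6 measured genes had a pooled difference above 0, with a median of 0.47 for the pooled difference and of 0.50, 0.62 and 0.16 for low, medium and high, and 4 were higher at an unadjusted p under 0.05, as were 7.34% of all genes. The list mean was 0.09 to 0.80 in the controls and 0.15 to 1.14 in the high dams. Wt1, a transcription factor of mesothelium, had controls from -2.06 to -1.33 and exposed dams from -1.75 through -1.12 to -0.02, and differed by 0.66 (adjusted p 0.146). Msln, the surface protein mesothelin, differed by 0.55 and Upk3b by 0.46. Bnc1, another mesothelial gene, taken up after its values were seen, differed by 0.59 (adjusted p 0.0818), with 0.65, 0.67 and 0.46 by dose. The list median was 0.44 to 0.53 under the other normalisations and filters.

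Granule genes of immature neutrophils differed without a call, Camp, the cathelicidin, by -0.97 and Ngp by -0.85 (adjusted p 0.0952 each), and the 14 measured neutrophil genes had a median of -0.33, of -0.06 with the software ratio and of 0.01 over the 6 members with Cy3 well above background on all arrays. Lcn2 of that list was moved by high alone. Complement genes had 7 of 23 higher at an unadjusted p under 0.05, against 7.34% of all genes, and a median of 0.13, with C3 at 0.42 (adjusted p 0.129) and 0.16 with another probe, C2 at 0.44 and the receptor C3ar1 at 0.24. Of the alveolar type 2 and surfactant genes, 18 of 19 were above 0 (median 0.15), but 11 of 19 with Cy5 alone (median 0.02), and of the proliferation genes 25 of 28 were below 0 (median -0.13). Smooth muscle and fibroblast genes were below 0 in 18 of 24 (median -0.12), and in 14 of 24 with the software ratio. Of 7 measured mammary and lactation hormone genes 6 were above 0 (median 0.22), among them the prolactin receptor Prlr at 0.25, with all its exposed dams from 0.03 to 0.49 and controls from -0.19 to 0.10, and the oestrogen receptor Esr1 at 0.39. Cardiac muscle genes had medians of -0.05, -0.74 and 0.02 from low to high, and their mean differed among the controls themselves from 0.08 to 1.88. No gene of these lists was called in the pooled comparison.

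The other lists held no pooled call. Their median pooled differences were 0.01 for conventional dendritic cells, 0.11 for interstitial macrophages and monocytes, 0.13 for particle-laden macrophages, -0.02 for B and plasma cells, 0.12 for chemokines, 0.24 for acute phase and 0.10 for interferon-stimulated genes. They were 0.02 for the circadian clock, 0.12 for immediate early and heat shock, -0.01 for erythroid, 0.00 for adipocyte, 0.08 for alveolar type 1, -0.02 for airway club and secretory, -0.07 for ciliated and 0.03 for endothelial genes. For sterol synthesis, NRF2, aryl hydrocarbon receptor and p53 genes they were 0.04, -0.01, 0.02 and 0.01. At an unadjusted p under 0.05 (limma), 3 of 8 aryl hydrocarbon receptor and 5 of 20 acute phase genes were higher and none lower. Of 29 chemokine genes 7 were higher and 1 was lower, against 7.34% higher and 7.65% lower among all genes.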
